A study of Mus musculus with 5 samples.

Results

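Spp1, Npy and Cck each encode a secreted protein or peptide, and they are described here across the cells of mouse mammary tumours. These 3 genes, of the 41028 genes in the count matrices, were taken up because an earlier look at the same data had shown Spp1 in both epithelial and macrophage cells and Npy and Cck in some of the same epithelial cells. Those patterns within each library are therefore given as descriptions, without a test. The tumours came from PyMT mice, in which the polyoma virus middle T oncogene is expressed in the mammary epithelium. Strain, age and the number of animals were not given in the labels. Tumours were digested and enriched for viable cells, and cells were captured either by Chromium 10x 3' v2 chemistry or by BD Rhapsody whole transcriptome analysis. There were 2 libraries of fresh tumour on 10x (fresh 10x 1 and 2) and 1 of fresh tumour on BD Rhapsody (BD 1). In 1 further 10x library (stored 10x) the digest had been held at 4 °C for 24 h, which lowered viability. The last BD Rhapsody library (BD 2) is called fresh in its title while its files are named for 24 h, so its values are shown and it enters no main comparison.

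Spp1 encodes osteopontin, a secreted phosphoprotein of the SIBLING family that binds integrins and CD44. It is made by bone cells, by several secretory epithelia including that of the breast, and by macrophages that take up lipid and debris, where it is a widely used marker of one macrophage state in tumours. Npy encodes neuropeptide Y and Cck encodes cholecystokinin. Both are made as prohormones that are cut and often amidated before release, the first best known from neurons and the second from gut endocrine cells and neurons.

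The 3 genes lie on different chromosomes (mm10): Spp1 on chr5:104435118-104441050 (plus strand), Npy on chr6:49822710-49829507 (plus strand) and Cck on chr9:121489824-121495694 (minus strand), by the GENCODE annotation. The 250 bases before each start site, taken from RefSeq (GRCm38.p6), are shown because the epithelial expression of the 3 genes partly coincided. They run 5′ to 3′ on the strand of the gene, and capitals mark matches to the motifs named after them.
Spp1, chr5:104434861-104435110, plus strand: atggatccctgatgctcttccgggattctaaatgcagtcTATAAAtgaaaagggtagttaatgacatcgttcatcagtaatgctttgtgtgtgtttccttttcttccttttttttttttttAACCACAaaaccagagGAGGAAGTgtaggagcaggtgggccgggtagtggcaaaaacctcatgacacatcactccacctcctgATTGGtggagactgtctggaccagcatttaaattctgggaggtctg
Npy, chr6:49822460-49822709, plus strand: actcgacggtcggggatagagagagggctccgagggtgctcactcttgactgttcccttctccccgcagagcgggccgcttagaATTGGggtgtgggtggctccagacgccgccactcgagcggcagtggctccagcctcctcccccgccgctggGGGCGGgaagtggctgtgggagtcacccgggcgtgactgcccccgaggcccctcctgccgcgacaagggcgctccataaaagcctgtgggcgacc
Cck, chr9:121495695-121495944, minus strand: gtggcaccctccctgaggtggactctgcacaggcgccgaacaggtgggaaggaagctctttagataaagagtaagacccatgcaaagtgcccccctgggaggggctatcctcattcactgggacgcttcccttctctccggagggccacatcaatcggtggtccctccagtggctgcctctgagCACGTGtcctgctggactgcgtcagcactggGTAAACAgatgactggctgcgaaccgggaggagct
The Spp1 window held TATAAA 211 bases before the start site, the RUNX motif AACCACA at 129, the PU.1 motif GAGGAAGT at 113 and a reverse-strand CCAAT, printed as ATTGG, at 46. RUNX factors act in bone and many other cells, and PU.1 is a regulator of myeloid genes. The Npy window held a reverse-strand CCAAT at 166 and the GC box GGGCGG at 95. The Cck window held the E-box CACGTG at 66 and the forkhead motif GTAAACA at 35. CCAAT was the 1 motif found in more than 1 of these windows. Both strands were searched, and none of the 3 windows held TGACGTCA or TGANTCA. Of 32851 windows of the same length, 12.4% held TATAAA, 33.8% CCAAT, 32.7% GGGCGG, 6.02% CACGTG, 4.40% AACCACA, 2.44% GAGGAAGT, 3.17% GTAAACA, 1.55% TGACGTCA and 6.75% TGANTCA. The motifs were chosen with the sequences in view, so the matches are a description of these letters and not of binding. The windows also differed in base composition, with a GC content of 43.6% for Spp1, 69.2% for Npy and 60% for Cck. A further Spp1 start site inside the gene had no match in its window.

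The libraries held up to 4186 cells each, and 29166129 to 59957945 unique molecular identifiers (UMIs, each standing for 1 captured RNA molecule), with a median of 8926 to 12474 UMIs per cell. The median mitochondrial share was 6.14% to 7.17% in the 10x libraries, 15.2% in BD 1 and 19.8% in BD 2. Pairs of 10x libraries shared 1 to 5 cell barcodes, and the BD libraries shared 24. Cells were grouped by clustering without the 3 genes, and clusters were named from marker genes. Epithelial-like cells numbered 1341, 1321, 2723, 2551 and 2896 in fresh 10x 1, fresh 10x 2, stored 10x, BD 1 and BD 2, and values are given in this order throughout. Macrophage-like cells numbered 50, 106, 181, 226 and 222. The 9 epithelial markers summed to 255 to 304 UMIs per 10000 in epithelial-like cells and still to 17.3 to 63.2 in macrophage-like cells. In the other direction, the 8 macrophage markers summed to 106 to 160 per 10000 in macrophage-like cells and to only 0.0717 to 0.158 in epithelial-like cells.

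Spp1 was an epithelial RNA in all 5 libraries. Epithelial-like cells held 124, 80.8, 87.1, 29.2 and 20.7 Spp1 UMIs per 10000, and 97.3%, 96.1%, 96.4%, 92.8% and 95.6% of all Spp1 UMIs of the library. The mean of the fresh 10x libraries was 102.5 per 10000 ± 30.6 (SD, n = 2). The 3 10x libraries lay above both BD libraries with no overlap. Macrophage-like cells held 10.5, 13.8, 28.7, 16.6 and 5.55 per 10000, with a fresh 10x mean of 12.1 ± 2.38 (SD, n = 2), and 0.125%, 0.551%, 0.739%, 3.39% and 1.29% of the library's Spp1 UMIs. In every library the macrophage level was thus below the epithelial one, and the gap was narrowest in BD 1. Fibroblast-like cells held 14.3, 22.5, 12.03, 2.52 and 2.22 per 10000, and endothelial-like cells, which served as a background class, 1.50, 5.72, 3.33, 6.13 and 0.486. Of the endothelial Spp1 UMIs of BD 1, 88.5% came from 1 cell with 255. In fresh 10x 2, 2 endothelial-like cells held 75.3%. Macrophage-like cells exceeded endothelial-like cells in all 5 libraries but not every other class. Erythroid-like cells held 28.1, 9.05, 16.5, 10.6 and 7.54 per 10000, above macrophage-like cells in fresh 10x 1 and BD 2, and cluster 12, which stayed unnamed and was led by Igkc and Cd3g, 8.53, 13.1, 18.1, 8.02 and 4.23, close to them in fresh 10x 2. The other unnamed clusters together held 163, 38.0, 49.4, 11.6 and 5.94. They were above macrophage-like cells in all libraries but BD 1, and above epithelial-like cells in fresh 10x 1. Neutrophil-like cells of BD 1, 12 in number, held 21.2, also above its macrophage-like cells. In turn, fibroblast-like cells were above macrophage-like cells only in fresh 10x 1 and 2. They fell below endothelial-like cells in BD 1, where that 1 cell carried most of the endothelial count.

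**Figure D1:**
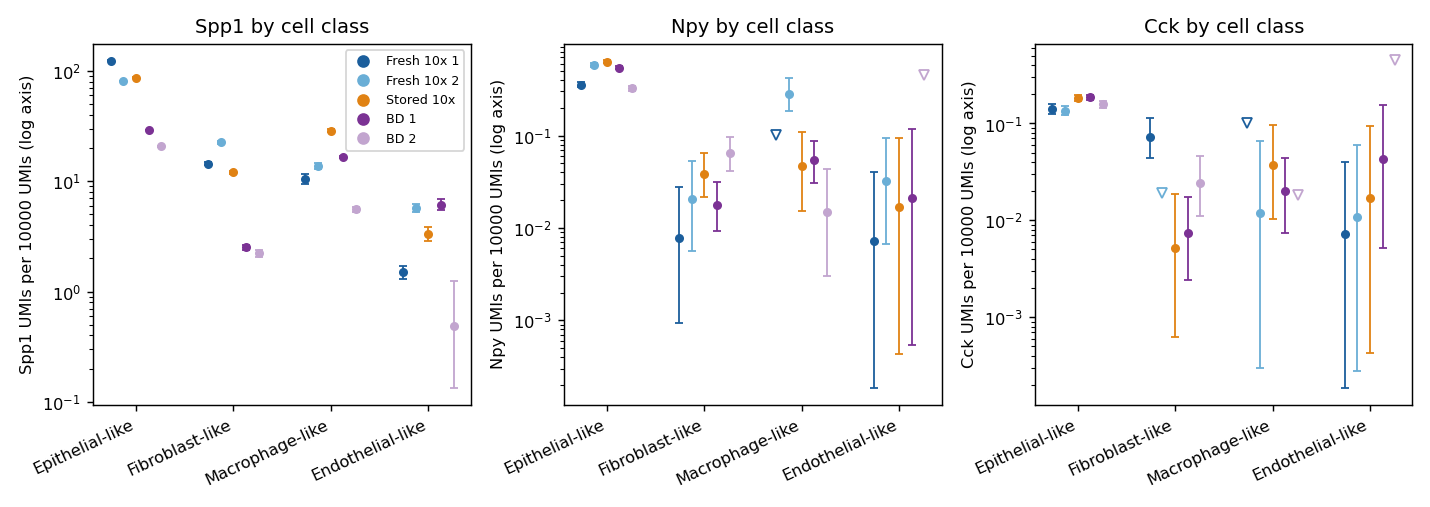
UMIs per 10000 of Spp1, Npy and Cck (log axis) in each library, by cell class, where each point is 1 library's summed count, bars are exact 95% Poisson intervals, and an open triangle marks the upper limit where the count was 0. Among these 4 classes, epithelial-like cells have the highest level of each gene in every library, and for Spp1 they span 20.7 to 124 per 10000 against 5.55 to 28.7 in macrophage-like cells.

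The share of cells with at least 1 Spp1 UMI separated the classes poorly. It was 90.8%, 88.4%, 95.8%, 74.4% and 62.9% of epithelial-like cells (median depth 11056 to 14260 UMIs) and 84.0%, 78.3%, 88.4%, 65.0% and 56.8% of macrophage-like cells (4570 to 11463 UMIs). Endothelial-like cells, at 4389 to 9319 UMIs, already reached 64.0%, 70.3%, 81.2%, 46.7% and 30.8%. With every cell thinned to 2000 UMIs, the epithelial-like share was 67.3%, 57.4%, 72.1%, 50.5% and 43.5%. Macrophage-like cells then reached 62.5%, 57.0%, 76.4%, 33.6% and 32.4%, and endothelial-like cells 22.4%, 36.1%, 44.3%, 8.89% and 0% (0 of 13 cells, which allows up to 23.1%). Shallower cells were left out, 18, 20 and 122 epithelial-like, 2, 13 and 41 macrophage-like and 20, 18 and 24 endothelial-like cells of the 10x libraries and 0 of the BD libraries. Macrophage-like cells thus stayed above endothelial-like cells in all 5 libraries at equal depth, but 22.4% to 44.3% of endothelial-like cells of the 10x libraries carried the RNA, so a lone Spp1 UMI did not mark a cell as a source.

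Spp1 was very unevenly spread over epithelial-like cells. The median cell held 9.61, 3.71, 9.63, 2.16 and 1.16 per 10000, while the 90th percentile was 408, 265, 315, 136 and 104. The tenth of cells with the most Spp1 held 66.7%, 72.9%, 67.9%, 60.5% and 64.9% of the epithelial Spp1 UMIs. The highest count in a cell was 6806, 6678, 4125, 1134 and 921 UMIs. At a division of 20 per 10000, chosen after the distribution was seen, 44.5%, 36.0%, 43.6%, 33.0% and 27.0% of cells were Spp1-high, and they held 98.5%, 97.5%, 97.2%, 93.7% and 92.2% of the UMIs. This division cuts a range and does not mark a cell type, since 11.6% to 13.8% of cells lay within 2-fold of it. The BD libraries had lower values at both the middle and the top of the range, not only fewer high cells.

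**Figure D2:**
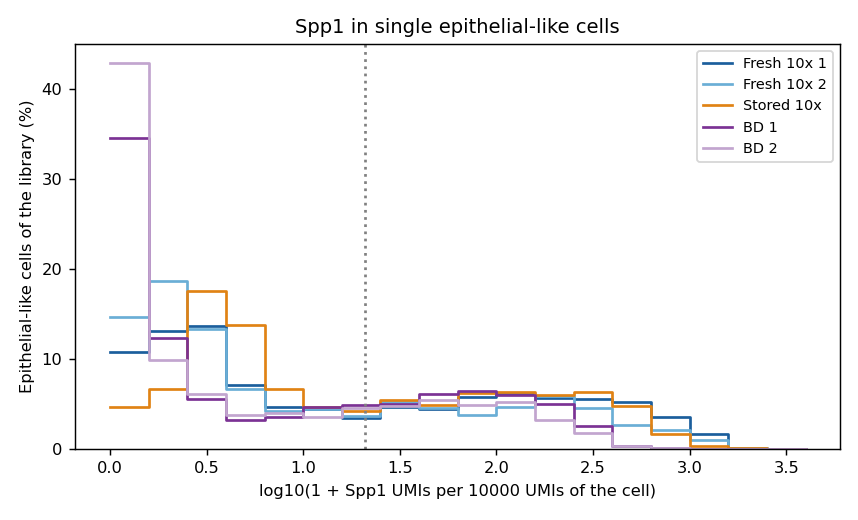
Distribution of Spp1 over epithelial-like cells in each library, as the percent of cells at each level of log10(1 + Spp1 UMIs per 10000), with a dotted line at 20 per 10000. Cells right of the line make up 44.5%, 36.0%, 43.6%, 33.0% and 27.0% of the 5 libraries.

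Spp1 differed widely between the epithelial clusters within each library. Cluster 0, led by S100g, Fcgbp and Cp, held 326, 262, 208, 68.5 and 61.5 per 10000, and cluster 5, led by Wfdc18 and Vtcn1, held 246, 185, 176, 73.1 and 58.9. Cluster 3, led by the milk protein genes Csn2 and Wap, held 211, 169, 130, 51.1 and 39.3. These 3 clusters had the highest levels in each of the 5 libraries. The interferon-response cluster 13, led by Cartpt, Ifit1 and Isg15, followed with 179, 66.3, 127, 41.0 and 34.7. Toward the other end, cluster 1, led by Scgb1b27 and the prolactin-induced Pip, held 16.7, 12.5, 6.81, 1.08 and 0.332. It was the lowest cluster only in the BD libraries. Cluster 19 was lower in fresh 10x 2 and stored 10x, at 6.15 in both, and cluster 20 in fresh 10x 1 and 2, at 1.08 and 6.27. Cycling cells of cluster 7, led by Ube2c and Birc5, held 34.9, 35.6, 34.3, 11.3 and 5.68, and the basal cluster 18, led by Krt5 and Krt14, 101, 63.1, 29.4, 26.3 and 17.5. In BD 1, Spp1 was below both fresh 10x libraries in 10 of the 11 epithelial clusters. The exception was cluster 20, which held 52 cells in all libraries together.

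**Figure D3:**
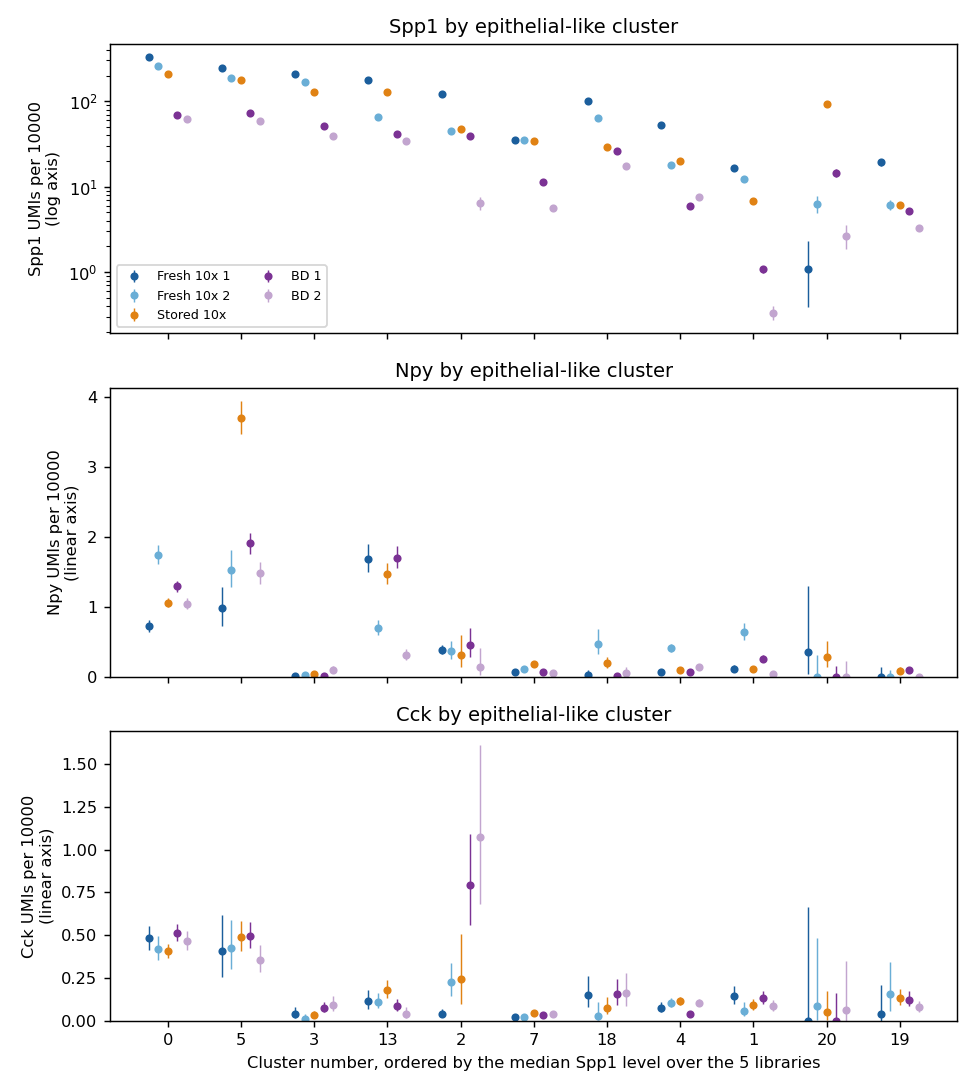
UMIs per 10000 of Spp1 (log axis), Npy and Cck (linear axes) in the epithelial clusters, 1 point per library. For Spp1, clusters 0, 5 and 3 lie highest and cluster 1 low in each library, whereas cluster 3 is at most 0.104 for Npy and 0.0949 for Cck.

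In macrophage-like cells the Spp1 level was 8.42%, 17.1%, 33.0%, 56.8% and 26.8% of the epithelial level of the same library. Epithelial RNA was present in these cells too: 5 genes of the epithelial marker list (Krt8, Krt18, Epcam, Csn3 and Wfdc18), summed, stood at 6.83%, 12.5%, 20.8%, 10.8% and 10.3% of their epithelial level. The proportion was larger for Spp1 than for these 5 genes in every library. Its ratio to them was 0.632, 0.442, 0.475, 0.527 and 0.203 in macrophage-like cells against 0.513, 0.323, 0.299, 0.1004 and 0.0778 in epithelial-like cells. The gap between the ratios was widest in BD 1 and narrowest in fresh 10x 1. A ratio above the epithelial one was not particular to macrophage-like cells, since in cluster 12 it was 1.47, 1.03, 0.414, 0.111 and 0.115. When macrophage-like cells with any UMI of Epcam, Krt8 or Krt18 were left out, 22, 46, 57, 64 and 108 cells remained. The macrophage level was then 7.85%, 8.49%, 26.8%, 12.5% and 18.8% of the epithelial one.

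A small number of cells held a large share of the macrophage signal, which was highest in stored 10x and BD 1. Macrophage-like cells with at least 50 Spp1 UMIs numbered 1, 4, 14, 17 and 3, and they held 39.8%, 60.8%, 76.6%, 86.4% and 38.3% of the macrophage Spp1 UMIs. Of these, 0, 1, 5, 13 and 1 had at most 4 UMIs of the 3 epithelial genes Epcam, Krt8 and Krt18 together, called epithelial UMIs in what follows. BD 1 thus had the most high cells with little epithelial RNA, and these 13 alone held 71.6% of its macrophage Spp1 UMIs. The highest cell of BD 1 had 618 Spp1 UMIs beside 1 epithelial UMI, and that of fresh 10x 2 had 378 beside 1. In stored 10x the highest cell had 468 Spp1 UMIs beside 368 epithelial UMIs, in BD 2 312 beside 50, and in fresh 10x 1 151 beside 83. Cells of both kinds, with and without epithelial RNA, were therefore among the highest.

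**Figure D4:**
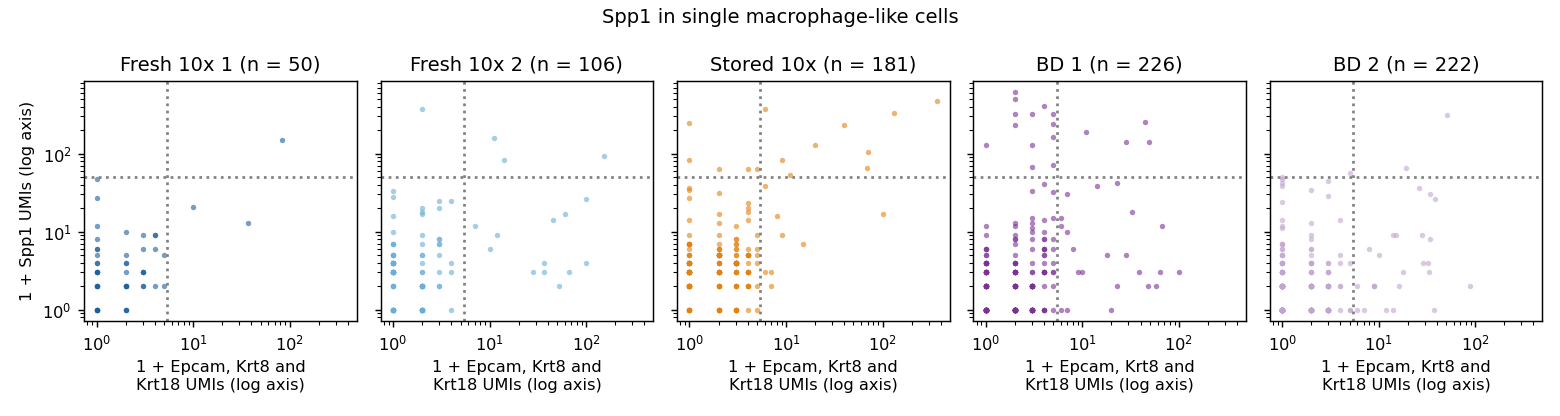
Spp1 UMIs against the summed UMIs of Epcam, Krt8 and Krt18 in each macrophage-like cell (log axes, 1 added to each count), by library, with dotted lines at 50 Spp1 UMIs and 4 epithelial UMIs. BD 1 has 13 cells with many Spp1 and few epithelial UMIs, the other libraries 0 to 5.

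The 13 high cells of BD 1 carried lysosomal and lipid-handling genes at high levels beside their Spp1. They were picked by their Spp1 count and come from 1 library, so their values are a description; the genes outside the lists were chosen after their values were seen. Spp1 was at 142 per 10000 against 2.18 in the other 187 macrophage-like cells with at most 4 epithelial UMIs. Cathepsin L (Ctsl) was at 68.6 against 1.60, Gpnmb, a lysosome-associated glycoprotein, at 27.2 against 0.523 and present in 8 of the 13 cells, and the fatty-acid carrier Fabp5 at 29.2 against 2.10. The lipid sensor Trem2 was at 15.001 against 5.60, the tetraspanin Cd9 at 7.20 against 1.37, galectin 3 (Lgals3) at 45.2 against 13.5, and Fn1 at 3.70 against 1.97. These lipid-handling genes were higher in the high cells, whereas Apoe (162 against 152) and Arg1 (0.684 against 0.916) were close to their level in the rest, and the complement gene C1qa was lower (11.4 against 24.3). Other markers of the macrophage class were lower too, namely C1qb (16.2 against 30.2), C1qc (14.6 against 39.9), Csf1r (7.80 against 17.9) and Adgre1 (1.69 against 2.42). Antigen-presentation genes were also lower, with H2-Aa at 12.1 against 131, Cd74 at 16.7 against 186 and no UMI of H2-Eb1, which allows up to 0.121 per 10000, against 1.49. The high cells were also deeper, with a median of 16280 UMIs against 10647.

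The 5 such cells of stored 10x resembled them in part. Spp1 was at 158 per 10000 against 8.36 in the other 159 cells, Lgals3 at 90.8 against 9.30, Fabp5 at 26.3 against 2.32, Gpnmb at 17.7 against 0.785 and H2-Aa at 10.7 against 62.0. Gpnmb came from only 2 of these 5 cells, and Ctsl was not higher in them, at 2.44 against 3.79. With finer clustering, the macrophage-like cells fell into a macrophage cluster and one that stayed unnamed, whose leading genes were Igkc and the mast cell protease Mcpt4. This unnamed cluster held 1 of 1, 2 of 4, 11 of 14, 16 of 17 and 1 of 3 of the high cells, so the macrophage Spp1 level moved with the clustering.

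Some fibroblast-like cells had much Spp1 as well. Cells with at least 50 UMIs numbered 18, 13, 11, 8 and 3, and 17, 11, 2, 2 and 0 of them had at most 4 epithelial UMIs. Nearly all those with little epithelial RNA were in the fresh 10x libraries. The fibroblast cluster 15, led by the activation marker Lrrc15, held 17.0, 33.2, 20.8, 2.59 and 7.78 per 10000, and cluster 14, led by Efemp1 and Clec3b, held 1.88, 1.28, 8.41, 2.50 and 0.790. The ratio of Spp1 to the 5 epithelial genes was 3.76 and 5.27 in fibroblast-like cells of fresh 10x 1 and 2, far above the epithelial ratio, and 0.409, 0.193 and 0.134 in the other libraries.

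Npy was found mostly in epithelial-like cells, which held 99.6%, 94.7%, 98.5%, 93.3% and 93.4% of its UMIs. Their level was 0.355, 0.579, 0.627, 0.543 and 0.324 UMIs per 10000, with a fresh 10x mean of 0.467 ± 0.159 (SD, n = 2). BD 1 lay between the fresh 10x libraries, stored 10x above both and BD 2 below both. At least 1 Npy UMI was seen in 6.71%, 11.1%, 11.1%, 10.1% and 6.87% of them. A few cells carried most of the RNA. The 22, 30, 71, 59 and 39 cells with at least 10 UMIs held 80.5%, 80.0%, 81.5%, 81.0% and 69.7% of the epithelial Npy UMIs, and the highest cell had 175, 132, 262, 197 and 100. At the low end, 36, 61, 133, 109 and 82 cells had exactly 1 UMI. In endothelial-like cells the share with an Npy UMI was 0.581%, 2.97%, 1.18% and 2.22%, and 0 of 13 cells in BD 2, which allows up to 23.1%. In macrophage-like cells it was 0 of 50 cells in fresh 10x 1, which allows up to 6%, and 3.77%, 1.66%, 3.98% and 1.35% in the others. Fresh 10x 2 stood apart, with 24 Npy UMIs in 4 macrophage-like cells, or 0.285 per 10000 against 0.0326 in endothelial-like cells. The unnamed clusters, without the one led by Igkc and Cd3g, were above epithelial-like cells in fresh 10x 2 (1.71 per 10000, in 4 cells) and BD 1 (0.597, in 8 cells). Erythroid-like cells were so in BD 2 (0.754, in 1 cell). All intervals and limits given cover counting error only.

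Cck was as widespread among epithelial-like cells as Npy but without cells of very high count. Its epithelial level was 0.141, 0.136, 0.182, 0.186 and 0.157 per 10000, with a fresh 10x mean of 0.139 ± 0.00386 (SD, n = 2). Both fresh 10x libraries lay below the other 3. Epithelial-like cells held 94.1%, 94.5%, 97.1%, 95.0% and 95.3% of the library's Cck UMIs, and 8.72%, 9.69%, 11.7%, 11.8% and 9.01% of them had at least 1. The highest cell had 17, 15, 24, 15 and 18 UMIs, and cells with at least 10 held only 24.5%, 20.2%, 18.1%, 16.5% and 15.6% of the RNA. Macrophage-like cells had 0, 1, 4, 6 and 0 Cck UMIs, and endothelial-like cells with a UMI made up 0.581%, 0.990%, 1.18%, 4.44% and 0%. Fibroblast-like cells of fresh 10x 1 had 19 Cck UMIs, all in 2 cells, and the unnamed clusters 8 and 11 together had 20 in each BD library.

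By cluster, Npy and Cck were both high with Spp1 in clusters 0 and 5 and low in the milk-protein cluster 3, and Npy was also high in the interferon-response cluster 13. Npy was at 0.725, 1.75, 1.06, 1.29 and 1.04 per 10000 in cluster 0 and at 0.980, 1.53, 3.70, 1.91 and 1.48 in cluster 5, against 0.0189 to 0.104 in cluster 3. Cck was at 0.481, 0.422, 0.406, 0.515 and 0.468 in cluster 0 and at 0.407, 0.428, 0.491, 0.495 and 0.356 in cluster 5, against 0.0117 to 0.0949 in cluster 3. Cluster 3, high in Spp1 in every library, was thus low in both peptides. In cluster 13 Npy was at 1.69, 0.698, 1.47, 1.71 and 0.313, above cluster 0 in fresh 10x 1, stored 10x and BD 1, and this cluster held 33.3% of the epithelial Npy UMIs of fresh 10x 1. Together, clusters 0 and 5 made up 19.2%, 20.4%, 32.8%, 33.4% and 30.5% of epithelial-like cells. They held 39.1%, 53.7%, 72.0%, 68.2% and 76.4% of epithelial Npy UMIs and 61.2%, 56.7%, 65.7%, 68.8% and 59.0% of Cck UMIs, beside 46.8%, 55.8%, 65.2%, 60.1% and 62.2% of Spp1 UMIs. Cck was also present in the Ly6d-led cluster 2, at 0.0413, 0.226, 0.245, 0.794 and 1.07 per 10000, though from no more than 38 UMIs in any library.

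Cck was found in a larger share of Npy-positive than of Npy-negative epithelial-like cells, but most positive cells had only 1 of the peptides. Cells with both numbered 21, 22, 63, 52 and 31. Of Npy-positive cells, 23.3% (95% Clopper-Pearson interval 15.1% to 33.4%), 15.1% (9.69% to 21.9%), 20.9% (16.5% to 26.0%), 20.2% (15.4% to 25.6%) and 15.6% (10.8% to 21.4%) also had Cck. Of Npy-negative cells, 7.67%, 9.02%, 10.6%, 10.8% and 8.53% had it. The share was higher beside Npy in all 5 libraries. Npy-positive cells were deeper than negative ones in 4 libraries, with medians of 18999, 15767, 16118 and 15946 against 12468, 13338, 11674 and 14113 UMIs, and shallower in BD 2, with 9666 against 11184. At 2000 UMIs per cell the shares became 9.38%, 0% (0 of 64 cells, which allows up to 4.69%), 4.07%, 10.6% and 4.81% against 2.09%, 3.23%, 2.91%, 3.94% and 3.44%. They rested on 3, 0, 5, 12 and 5 cells with both. The order held in 4 of the 5 libraries and was not seen in fresh 10x 2. Only in BD 1 did the 95% interval (5.61% to 17.8%) exclude the share of Npy-negative cells. Within clusters 0 and 5 alone, a restriction chosen after the data were seen, Cck was in 37.8%, 25.5%, 27.3%, 28.2% and 19.0% of Npy-positive cells against 18.1%, 19.7%, 21.1%, 20.6% and 16.3% of the others. The gap was thus smaller there as a ratio than over all epithelial-like cells.

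**Figure D5:**
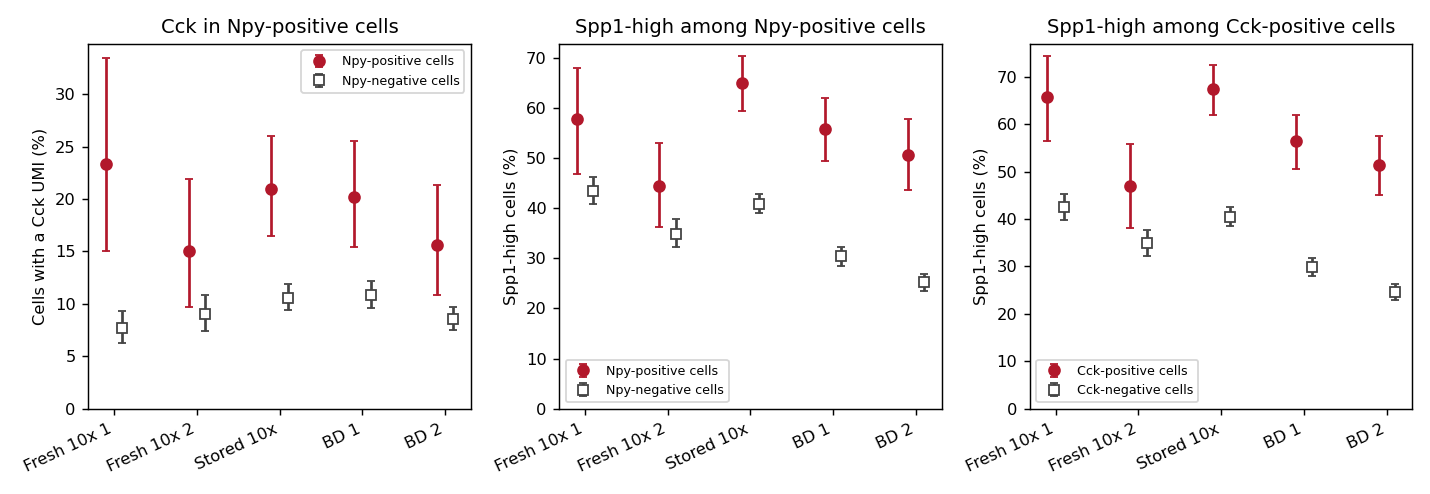
Percent of epithelial-like cells with a Cck UMI, and percent that are Spp1-high, among cells with and without Npy or Cck, in each library, with exact 95% binomial intervals. The share is higher in the peptide-positive cells in each library, for example 65.1% against 41.0% Spp1-high with and without Npy in stored 10x.

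A larger share of cells with either peptide than of cells without it was Spp1-high. Of Npy-positive cells, 57.8%, 44.5%, 65.1%, 55.8% and 50.8% were Spp1-high, against 43.6%, 35.0%, 41.0%, 30.4% and 25.2% of Npy-negative cells. Of Cck-positive cells, 65.8%, 46.9%, 67.4%, 56.3% and 51.3% were, against 42.5%, 34.9%, 40.5%, 29.9% and 24.6% of Cck-negative cells. The difference had the same direction in all 5 libraries and was narrowest in fresh 10x 2. The median Spp1 level was 73.2, 6.46, 80.6, 39.0 and 22.1 per 10000 in Npy-positive cells against 8.75, 3.51, 7.43, 1.64 and 1.02 in the rest, and 103, 8.94, 93.5, 37.6 and 22.4 in Cck-positive cells against 7.74, 3.44, 6.97, 1.57 and 0.980. Of cells with both peptides, 15 of 21, 13 of 22, 47 of 63, 38 of 52 and 20 of 31 were Spp1-high. The overlap of Npy and Cck was not limited to Spp1-high cells. Among Spp1-low cells Cck was in 15.8%, 11.1%, 15.2%, 12.3% and 11.2% of Npy-positive cells against 4.82%, 7.72%, 6.15%, 7.34% and 5.75% of the others. These shares were not taken at equal depth and rested on 6, 9, 16, 14 and 11 cells with both. Their 95% intervals included the share of the others in fresh 10x 2, BD 1 and BD 2.

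Foxi1, a forkhead factor of acid-secreting epithelial cells, was present in 56.4%, 61.7%, 61.8%, 60.3% and 51.3% of Cck-positive cells against 37.7%, 48.3%, 41.2%, 46.3% and 37.7% of the rest. Among Npy-positive cells it was in 48.9%, 57.5%, 63.5%, 55.0% and 42.2%, against 38.7%, 48.6%, 41.1%, 47.2% and 38.7%. At 2000 UMIs per cell this order held with Cck in 4 libraries and with Npy in 3. The thinned share was lower beside Npy in fresh 10x 1 (9.38% against 10.3%) and BD 2 (14.4% against 14.9%) and beside Cck in BD 2 (10.9% against 15.1%), and in BD 1 it was close, 17.7% against 16.4% with Npy and 17.6% against 16.4% with Cck.

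Genes that varied most like Spp1 across epithelial-like cells were ranked by their lowest Pearson correlation over the 5 libraries, among 11922 genes. Cells of a library share depth and free RNA, so the coefficients are descriptions. Closest was Mfge8, which encodes the milk fat globule protein lactadherin, with r from 0.53 to 0.63, then Cp, encoding ceruloplasmin, with 0.48 to 0.54, S100a6 (0.36 to 0.42) and Bhlhe41 (0.36 to 0.41). Srgn, Basp1, C530043A13Rik and the lysosomal lipase gene Lipa made up the first 8, with lowest values of 0.34, 0.32, 0.32 and 0.30. In the opposite direction stood the water channel gene Aqp5, from -0.43 to -0.36, and the carboxypeptidase gene Cpd, from -0.40 to -0.31. Npy and Cck themselves correlated only weakly with Spp1, from 0.05 to 0.20 and from 0.05 to 0.19, and with each other from 0.00 to 0.08. The gene most like Npy was Wfdc18, at 0.13 to 0.18, which is too weak in such sparse counts to be a finding. Cck came closest to Lipa, Itm2b and Cst3, with highest values of 0.26, 0.25 and 0.27, also weak. In macrophage-like cells, Spp1 varied most like Ctsl, with r from 0.22 to 0.55, Pdpn (0.21 to 0.38) and Mfge8 (0.19 to 0.41), and opposite to H2-DMb1 (-0.27 to -0.14) and H2-Aa (-0.31 to -0.10).

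BD 1 was compared with the fresh 10x libraries by edgeR's quasi-likelihood test on UMIs summed over each library or class. The fit has 1 residual degree of freedom, and nothing in the labels says that the fresh 10x libraries came from separate animals. BD Rhapsody is here 1 library, so platform and library cannot be told apart. The p-values cover only the spread between these libraries. With 1 degree of freedom, that spread is mostly estimated by edgeR from all genes together and not from Spp1 alone. In whole libraries Spp1 stood at 10720 and 7198 CPM (counts scaled to a common library size) in fresh 10x 1 and 2 and at 2291 in BD 1. It fell by 1.99 on the log2 scale (SE 0.29, edgeR with Benjamini-Hochberg adjusted p = 0.00816). At a false discovery rate of 0.05, 41.4% of the 15859 genes tested were called in this comparison, so a call by itself was common. In such whole-library sums, fewer cells of a type and less RNA per cell cannot be told apart. In epithelial-like cells, where 43.6% of 14376 genes were called, Spp1 was at 12963 and 8245 against 2742 CPM and fell by 1.97 on the log2 scale (SE 0.31, edgeR adjusted p = 0.00333). The mitochondrial share was higher in BD 1 than in both fresh 10x libraries, and its part in this difference was not tested.

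For Npy and Cck no difference from fresh 10x passed the test in BD 1. In epithelial-like cells the log2 fold change of BD 1 against fresh 10x was 0.07 for Npy (edgeR adjusted p = 0.852) and 0.27 for Cck (edgeR adjusted p = 0.148), and in whole libraries 0.02 (adjusted p = 0.967) and 0.17 (adjusted p = 0.369). BD 1 lay between the fresh 10x libraries for Npy and above both for Cck. For Npy in macrophage-like cells the fitted value of -1.96 rested on 0, 24 and 16 UMIs (edgeR adjusted p = 0.0638). Within BD 1, the cells that 2 further deposited matrices of the same library hold, and those in neither, had 22.5, 37.2 and 23.0 Spp1 UMIs per 10000 in epithelial-like cells. All lay below both fresh 10x libraries.

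In macrophage-like cells, where 22.9% of 8651 genes were called, Spp1 did not pass the test in BD 1, at 1078 and 1428 CPM in fresh 10x against 1557 (log2 fold change 0.16, SE 0.28, edgeR adjusted p = 0.722). The change in macrophage-like cells exceeded that in epithelial-like cells by 2.20 on the log2 scale (SE 0.35, edgeR adjusted p = 4.44e-07), in a test of the difference between the classes in which 0.614% of genes were called. This test, also used for stored 10x below, was added after the data were seen. Spp1 had been chosen for its levels in these classes, so the p-value is a description. The difference depended on which cells were counted as macrophages. Leaving out cells with Epcam, Krt8 or Krt18 UMIs kept 22, 46 and 64 cells of fresh 10x 1, fresh 10x 2 and BD 1. These held 123, 170 and 220 Spp1 UMIs. In BD 1, 1 cell held 127 of them, and its other high cells were left out, also those with few epithelial UMIs. With finer clusters the macrophage log2 fold change was -1.99 (edgeR adjusted p = 2.75e-14), and without cells holding Epcam, Krt8 or Krt18 UMIs it was -1.46 (edgeR adjusted p = 0.00164). The difference between the classes was then 0.076 and 0.60, both with an adjusted p of 1.

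Stored 10x was compared with the same fresh 10x libraries, so the comparisons share their controls, and storage rests on 1 library and cannot be told apart from it. Few genes were called: 0.228% of 15353 in whole libraries and 0.943% of 13996 in epithelial-like cells. These shares, as all shares of genes called, are those of edgeR. DESeq2 called more genes in both, and fewer in macrophage-like cells and in every comparison of BD 1 with fresh 10x. None of the 3 genes passed the test in whole libraries or epithelial-like cells. In epithelial-like cells the log2 fold change was -0.23 for Spp1 (edgeR adjusted p = 0.729), 0.44 for Npy (adjusted p = 0.390) and 0.40 for Cck (adjusted p = 0.203). Stored 10x lay between the fresh libraries for Spp1 and above both for Npy and Cck. In macrophage-like cells, where 1.87% of 8301 genes were called, Spp1 was at 1045 and 1384 CPM in fresh 10x and 2872 in stored 10x and rose by 1.23 on the log2 scale (SE 0.26, edgeR adjusted p = 0.000328). The epithelial markers summed to 17.3 and 33.2 per 10000 in these cells of fresh 10x and to 63.2 in stored 10x. Erythroid markers summed to 0.0828 and 0.297 in fresh 10x and to 45.7 in stored 10x, and mast cell markers to 0.110, 0.142 and 1.95. The class thus held other RNA in stored 10x than in fresh 10x, and the part of this in the rise was not tested. Without cells holding Epcam, Krt8 or Krt18 UMIs, 57 cells with 559 Spp1 UMIs remained in stored 10x, and 22 and 46 in fresh 10x. In stored 10x, 1 cell held 248 of the 559. Among macrophage-like cells without Epcam, Krt8 or Krt18 UMIs the rise was 1.52 (edgeR adjusted p = 0.00188). It did not pass with DESeq2 (1.22, adjusted p = 0.187), with cells filtered on depth and mitochondrial share (1.25, edgeR adjusted p = 0.158) or with classes set by marker gates (0.70, edgeR adjusted p = 0.118). The difference from the epithelial change was 1.45 (SE 0.38, edgeR adjusted p = 0.0393, 0.414% of genes called), and it too did not pass with that cell filter (1.46, edgeR adjusted p = 0.194), with marker gates (1.10, adjusted p = 0.645) or without those keratin- and Epcam-positive cells (1.76, adjusted p = 0.193).

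The receptors and processing genes of the 3 products are given from lists drawn up with earlier results known, beside a median of all genes of -0.01 to 0.01 on the log2 scale in every comparison. Of 10 osteopontin receptor genes, 6 were higher and 0 lower in BD 1 whole libraries, where 41.4% of all genes were called, with a list median of 0.74. Cd44, the hyaluronan and osteopontin receptor, was at 1.14, and the integrin genes Itgav, Itgb1, Itgb3, Itga5 and Itga9 were at 0.73, 0.60, 1.23, 1.21 and 0.77. In epithelial-like cells (43.6% of all genes called) 5 of 9 tested were higher and 1, Itgb5, was lower (-0.44), and in macrophage-like cells (22.9% called) 3 of 8 were higher, Cd44 at 1.98, Itgb1 at 1.05 and Itga5 at 2.58. In stored 10x 0 of 10 receptor genes passed in whole libraries, and Cd44 alone, of 7, rose in macrophage-like cells (1.54). Cd44 was at 0.522 to 2.57 per 10000 in macrophage-like and 0.391 to 0.810 in epithelial-like cells, Itgb5 at 3.12 to 5.19 in macrophage-like cells and Itgb1 at 4.38 to 9.51 in endothelial-like cells.

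Of the 5 genes for enzymes that modify or cleave osteopontin, 4 were tested in whole libraries and the transglutaminase gene Tgm2 was higher in BD 1 (1.00). In epithelial-like cells Tgm2 was higher (1.02) and Fam20c, the kinase of secreted phosphoproteins, lower (-0.65). Of the other SIBLING genes, 1 of 4 was abundant enough to test in whole libraries and did not pass. Most receptor genes for the peptides were too low in count to test. No gene of the cholecystokinin receptor and gastrin list (3 genes) and 2 of the 8 genes of the neuropeptide Y list were abundant enough to test in whole libraries, and of the latter Dpp4, which trims neuropeptide Y, was higher in BD 1 (1.93). Npy1r was found in fibroblast-like cells at 0.0540 to 0.105 per 10000, and in macrophage-like cells of BD 1 and BD 2 at 0.105 and 0.0838.

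Of 7 prohormone-processing genes, 5 were tested in BD 1 whole libraries and 3 called, against 41.4% of all genes. Pam, the amidating enzyme of peptides such as neuropeptide Y and cholecystokinin, was higher (1.59), and Pcsk1n (-1.29) and the carboxypeptidase gene Cpe (-0.42) were lower. Of the secretory granule list, Scg3 alone was tested in whole libraries, and it was higher in both BD 1 (4.85) and stored 10x (4.17). Its RNA was in fibroblast-like cells, at 0.00772, 0.0415, 0.709, 0.853 and 1.23 per 10000, and at most 0.00211 in epithelial-like cells. Of the Foxi1 list, 2 of 4 tested were higher in BD 1 whole libraries, a share near that 41.4%, namely Atp6v1b1 (0.44) and Atp6v0d2 (4.36), both subunits of the proton pump, and 0 of 4 passed in stored 10x whole libraries. In macrophage-like cells Atp6v0d2 alone, of 4, was higher in BD 1 (22.9% of all genes called) and in stored 10x (1.87% called). In epithelial-like cells of BD 1 only Atp6v1b1 was called. Of the macrophage-like cells of BD 1 with at most 4 epithelial UMIs, the 13 Spp1-high cells held 213 Atp6v0d2 UMIs, against 60 in the other 187.

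Of the 8 lipid-handling macrophage genes, macrophage-like cells of BD 1 had Gpnmb (2.75) and Arg1 (1.10) higher and Apoe (-1.87) and C1qa (-1.75) lower, 4 of 8 where 22.9% of all genes were called, with a list median of 0.03. In stored 10x Gpnmb (1.76) and Fn1 (1.33) rose and Apoe (-0.73) fell, 3 of 8 where 1.87% of all genes were called, with a list median of -0.02. Gpnmb thus rose in macrophage-like cells in both comparisons, which share their controls, while Trem2, Cd9 and Lgals3 passed the test in neither. Few cells carried it: among cells with at most 4 epithelial UMIs, the 13 Spp1-high cells of BD 1 held 677 Gpnmb UMIs, in 8 cells, against 113 in the other 187, and the 5 of stored 10x held 58, in 2 cells, against 59 in the other 159.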

How the data were processed

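The 5 libraries were deposited as UMI count matrices (whole counts per gene and cell barcode), which the authors made with Cell Ranger 3.0.1 and mm10, per the submitters' processing notes. How BD Rhapsody reads were counted is not given in the sources used here. The members and gene lists were chosen with earlier results of these data known.

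The 5 libraries were clustered together (scanpy 1.11.5, Leiden resolution 1.0) after cells under 200 genes were set aside, on 2000 variable genes without Spp1, Npy and Cck, 30 principal components and 15 neighbours. This gave 22 clusters, named from marker lists. Scrublet called 21, 9, 2, 0 and 1 doublets. It called 1.03% of fresh 10x 1, and under 0.5% of each other library, where it is taken not to have worked. The called doublets were left out of the clustering and so of the classes named from it. Since so few were called, doublets of epithelial cells and macrophages can still be among the macrophage-like cells. Levels are UMIs per 10000 UMIs of the class, with exact Poisson and Clopper-Pearson 95% intervals.

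UMIs summed per library and class were tested with edgeR 4.0.16 (quasi-likelihood, TMM, filterByExpr, Benjamini-Hochberg over all genes tested, threshold 0.05), for the 2 fresh 10x libraries against BD 1 or stored 10x. BD 2 was left out of the main fits because its labels conflict, and grouped with BD 1, as its title says, in an alternative. The SE given with an edgeR value is its absolute log2 value divided by the square root of the F statistic, not a separate estimate. The difference between classes was tested with a term for the library. This test, and in the tests the alternative without macrophage-like cells holding Epcam, Krt8 or Krt18 UMIs, were added after seeing the data. The test script was checked on simulated counts. The genes named are the members, the lists, and for each member the 8 genes with the highest lowest correlation over the 5 libraries. Other alternatives were DESeq2 1.42.0 and its size factors, no filter on low counts, all groups in 1 fit, a cell filter (at least 500 UMIs, at most 20% mitochondrial), classes from marker gates, Leiden resolution 2.0 and leaving out each fresh 10x library.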

Additional observations from a re-analysis of the deposited data

Results flagged for a closer look

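The Spp1 change between fresh 10x and the other libraries differed between macrophage-like and epithelial-like cells in a test of that difference. That test was added after the data were seen, for a gene chosen by its levels in these classes, so its p-values are descriptions. For BD 1 the macrophage-like change exceeded the epithelial-like one by 2.20 on the log2 scale (SE 0.35, edgeR quasi-likelihood test, Benjamini-Hochberg adjusted p = 4.44e-07), and for stored 10x by 1.45 (SE 0.38, adjusted p = 0.0393). In BD 1 Spp1 fell in epithelial-like cells and was not called in macrophage-like cells, and in stored 10x it rose in macrophage-like cells and was not called in epithelial-like cells. Neither difference held under every alternative. For BD 1 it was 0.076 at Leiden resolution 2.0 and 0.60 without macrophage-like cells holding Epcam, Krt8 or Krt18 UMIs, both with an edgeR adjusted p of 1, and macrophage-like Spp1 then fell too, by 1.99 and 1.46. Of the 17 high cells of BD 1, 16 lay in the finer cluster that stayed unnamed. Only 1 of the 17, with 127 Spp1 UMIs, had no UMI of Epcam, Krt8 and Krt18. For stored 10x the call was lost with the cell filter (edgeR adjusted p = 0.194), marker gates (0.645) and without those cells (0.193). Both rest on 1 library against the same 2 fresh 10x libraries. In BD 1, 13 macrophage-like cells held 71.6% of the macrophage Spp1 UMIs. In stored 10x, 14 cells held 76.6%, and 9 of these had more than 4 UMIs of Epcam, Krt8 and Krt18.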

How the results depend on the processing

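Of 163 values recomputed under another setting, 129 kept their side of the threshold without a called change of direction, or moved by less than the spread. For Spp1 43 of 49 test values did, for Npy 36 of 40 and for Cck 29 of 30. The fall of Spp1 in BD 1 held under each alternative run, from -2.16 (BD 2 grouped with BD 1) to -1.97 in whole libraries (without a fresh library -2.22 to -1.65) and from -2.17 (BD 2 grouped likewise) to -1.95 in epithelial-like cells (-2.24 to -1.59). For macrophage-like Spp1 in BD 1, Leiden resolution 2.0 gave -1.99 and removal of cells with Epcam, Krt8 or Krt18 UMIs -1.46, both reversed from 0.16, and marker gates gave -0.45 and BD 2 grouped with BD 1 -0.41, neither called. Without a fresh library it ran from 0.12 to 0.50. The rise in stored 10x was not called with DESeq2 (1.22), the cell filter (1.25) or marker gates (0.70). The difference between classes was not called for BD 1 at Leiden resolution 2.0 (0.076) or without those cells (0.60), nor for stored 10x with the cell filter (1.46), marker gates (1.10) or without those cells (1.76). Without a fresh library, macrophage-like Npy ran from -2.32 to 2.44 in BD 1 and from -2.17 to 1.42 in stored 10x, and Cck in whole BD 1 libraries from 0.19 to 0.21. Macrophage Spp1 as a percent of epithelial was, with marker gates, 23.6 (stored 10x), 37.2 (BD 1) and 18.4 (BD 2); at Leiden resolution 2.0, 17.4, 10.3 and 20.7; without those cells, 26.8, 12.5 and 18.8; and with the cell filter 29.5 in BD 2. The percent of Npy-positive cells with Cck was, at a minimum of 3 UMIs, 10.9 over the fresh 10x libraries, then 8.39 (stored 10x), 9.09 (BD 1) and 4.55 (BD 2), and at 2000 UMIs per cell 4.69, 4.07, 10.6 and 4.81. Apart from fewer counted cells or UMIs by construction, the cause was not tested. No paired analysis was possible because the groups compared with fresh 10x have 1 library each. Depth limits Npy and Cck in macrophage-like cells, which held 0 to 24 and 0 to 6 UMIs per library.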
